A study of Mus musculus with 8 samples.

Results

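Rag1, Rag2 and Dntt carry out the first steps by which developing lymphocytes assemble their antigen receptor genes. They are represented by every probe set on the array annotated to 1 of these 3 genes, that is, 5 of the 34945 probe sets with a single gene symbol, or 3 of 18193 genes. Rag1 and Rag2 had 1 probe set each and Dntt had 3. The genes were chosen by their array signal, which was lower in Sca1-MALT1 than in wild-type (WT) samples. Their differences between the genotypes are therefore given as a description, with no test.

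RAG1 and RAG2 form the recombinase that recognises the signal sequences beside the V, D and J segments of immunoglobulin and T cell receptor genes and cuts the DNA there. RAG1 holds the catalytic site, and RAG2 is its obligate cofactor and reads a histone mark of active chromatin. Terminal deoxynucleotidyl transferase (TdT), the product of Dntt, then adds untemplated nucleotides to the open ends before general end joining factors seal them. In adult bone marrow these genes are known for their expression in early lymphoid progenitors and in pro-B and pre-B cells, and they are silent in mature B cells and plasma cells.

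The arrays held amplified total RNA of bone marrow cells sorted as Sca1+Lin-, that is, positive for the surface protein Sca1 and without markers of mature lineages, a gate enriched for stem and progenitor cells. There were 5 samples with the Sca1-MALT1 transgene and 3 from WT mice, with no treatment named for either. By its name, the transgene joins the promoter of Sca1, also the marker of the sort, to MALT1, which encodes a scaffold and protease in NF-kB signalling and is translocated in MALT lymphoma. The labels give no strain, age or sex, and do not say whether each sample was 1 animal or a pool. How much of the spread between samples is technical is therefore not known. All values are log2 signals made with robust multi-array average (RMA), which gives no detection call. The median over all probe sets of an array lay between 6.40 and 6.48, and a signal below it is read here as low and not as absent.

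The sort was checked against stem and progenitor markers, and the gene of Sca1 itself was not analysed here. Kit, the stem cell factor receptor, read 8.43 to 10.65 in Sca1-MALT1 (n = 5) and 9.24 to 11.06 in WT (n = 3), above the array median in each. Other stem genes were low in some arrays, such as Tek, an angiopoietin receptor, at 4.54 to 7.72 in Sca1-MALT1 and 5.43 to 6.49 in WT. Genes of mature cells outside the gate also gave signal, with a list mean over 12 genes of 9.78 to 12.09 in Sca1-MALT1 and 10.76 to 11.34 in WT. The stem and multipotent progenitor list, over 13 genes, averaged 7.64 to 10.32 in Sca1-MALT1 and 9.16 to 10.32 in WT. In every array except Sca1-MALT1 replicate 5 it lay below the list of cells outside the gate. Signals of different probe sets do not give the share of each cell type. The 3' minus 5' signal of the control transcripts, a measure of RNA quality, differed between the genotypes by -0.12 for Gapdh (exact two-sided permutation p = 0.607) and by -0.16 for beta-actin (exact two-sided permutation p = 0.679), where the smallest possible p was 0.0179. Xist, the RNA of the inactive X chromosome, read 13.09 and 12.46 in Sca1-MALT1 replicates 2 and 4 and between 6.20 and 6.58 in the other 6 arrays. The Sca1-MALT1 arrays therefore did not all repeat 1 sample. Over all 18193 genes, 16 passed limma's test at an adjusted p under 0.05, which is 0.0879% of those tested. The count was 10, 38, 8 and 9 without Sca1-MALT1 replicates 1, 2, 3 and 5.

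The promoters are shown because all 3 genes had lower signal in Sca1-MALT1 arrays than in WT arrays. Rag1 and Rag2 lie side by side on chromosome 2 and are transcribed towards each other, so their promoters face outwards from the pair, while Dntt lies on chromosome 19. Each sequence holds the 250 bases before the annotated start, 5′ to 3′ on the strand of the gene, from RefSeq on build GRCm38.p6, at chr2:101649533-101649782 on the minus strand for Rag1, chr2:101624462-101624711 on the plus strand for Rag2 and chr19:41029025-41029274 on the plus strand for Dntt. Capitals mark E boxes, the letters CANNTG that E proteins such as the Tcf3 product bind.
Rag1: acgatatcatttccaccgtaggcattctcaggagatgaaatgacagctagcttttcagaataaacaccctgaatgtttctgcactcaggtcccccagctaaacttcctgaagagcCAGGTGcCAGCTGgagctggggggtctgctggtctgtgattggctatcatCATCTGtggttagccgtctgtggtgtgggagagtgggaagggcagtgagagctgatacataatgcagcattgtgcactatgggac
Rag2: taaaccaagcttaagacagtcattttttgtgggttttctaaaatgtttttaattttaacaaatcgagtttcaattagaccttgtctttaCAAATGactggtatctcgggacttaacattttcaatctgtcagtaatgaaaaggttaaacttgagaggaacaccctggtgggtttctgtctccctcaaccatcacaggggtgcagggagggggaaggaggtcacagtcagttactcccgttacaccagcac
Dntt: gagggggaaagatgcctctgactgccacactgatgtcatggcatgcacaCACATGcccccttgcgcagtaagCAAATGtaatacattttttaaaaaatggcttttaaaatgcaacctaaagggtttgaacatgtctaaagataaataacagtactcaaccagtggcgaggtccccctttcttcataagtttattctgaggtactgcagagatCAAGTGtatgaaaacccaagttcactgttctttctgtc
Rag1 held 3 E boxes, Rag2 held 1 and Dntt held 3, in a window where 66.2% of all 32851 RefSeq promoters of this length held at least 1. The letters AACNG, bound by Myb, matched at no place in Rag1, at 2 in Rag2 and at 2 in Dntt, and in 74.2% of all promoters. TGGGAA, the core of an Ikaros site, matched once in Rag1 and in neither of the others, against 21.6% of all promoters, and overlapped there with 1 of the 3 matches of GGAA, the ETS core. GGAA itself matched 3 times in Rag1, 2 times in Rag2 and once in Dntt, and in 93.4% of all promoters. None of the 3 windows held the forkhead letters TGTTTAC, found in 3.17% of all promoters, or TATAAA, found in 12.4%. Both strands were searched, and a match or its lack describes only these letters in these windows.

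Rag1 had the most negative difference of all 18193 genes. Its probe set 1450680_at read 5.28, 6.29, 4.65, 4.67 and 4.37 in Sca1-MALT1 replicates 1 to 5, against 11.13, 9.91 and 11.76 in WT replicates 1 to 3. Every Sca1-MALT1 array lay below its array median and every WT array far above it, with 3.62 log2 units between the highest Sca1-MALT1 and the lowest WT array. The means were 5.05 ± 0.77 (SD, n = 5) in Sca1-MALT1 and 10.93 ± 0.94 (SD, n = 3) in WT, a difference of -5.88 (SE 0.52). Ranked within its array, the probe set stood between the 12.5th and 43.2nd percentile of named probe sets in Sca1-MALT1 and between the 86.3rd and 96.8th in WT. In bulk samples such as these, fewer cells that express a gene and less RNA of it per cell cannot be told apart.

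Rag2 was low in every transgenic array, and the 5 values lay close together. Its probe set 1418065_at read 5.61, 5.42, 5.28, 5.08 and 5.18 in Sca1-MALT1 replicates 1 to 5, against 8.44, 6.96 and 7.92 in WT replicates 1 to 3. The groups were 1.35 log2 units apart at their closest, and WT replicate 2 was the lowest WT array for Rag2, as it was for Rag1. The means were 5.31 ± 0.21 in Sca1-MALT1 (SD, n = 5) and 7.77 ± 0.75 in WT (SD, n = 3), a difference of -2.46 (SE 0.30). The 5 Sca1-MALT1 arrays spanned 0.54 log2 units, at the 23.2nd to 30.5th percentile of named probe sets. Signal and background cannot be separated at that level with RMA values, so no fold is given for Rag1 or Rag2, and their log2 differences are not compared with each other.

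Dntt was lower in Sca1-MALT1 too, but its level varied widely among the transgenic arrays. The brightest of its 3 probe sets, 1449757_x_at, read 6.20, 10.85, 8.16, 7.73 and 9.29 in Sca1-MALT1 replicates 1 to 5, against 13.56, 11.53 and 11.38 in WT replicates 1 to 3. Sca1-MALT1 replicate 2 came within 0.52 log2 units of the lowest WT array, while replicate 1 lay below its array median. The means were 8.45 ± 1.74 (SD, n = 5) in Sca1-MALT1 and 12.16 ± 1.22 (SD, n = 3) in WT, a difference of -3.71 (SE 0.98), or 13.1-fold lower. The suffix of this probe set marks probes that may also bind related sequences, so the other two probe sets were read beside it.

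The 3 Dntt probe sets gave the same picture at different brightness. Probe set 1450545_a_at read 5.92, 9.12, 6.34, 6.51 and 7.96 in Sca1-MALT1, against 12.08, 10.43 and 9.45 in WT, a difference of -3.48 (SE 0.83). Probe set 1420166_at read 4.75, 7.09, 4.53, 5.19 and 5.90 in Sca1-MALT1, against 10.10, 8.35 and 7.75 in WT, a difference of -3.24 (SE 0.68). In all 3, replicates 2 and 5 were the highest Sca1-MALT1 arrays, and WT replicate 1 was the highest WT array with replicate 3 the lowest. The range over the Sca1-MALT1 arrays was 4.65, 3.20 and 2.55 log2 units from the brightest to the dimmest probe set. For all 5 probe sets of the 3 genes, each Sca1-MALT1 array was lower than each WT array, which held for 3.08% of the 34945 named probe sets. The rule chose the members on this contrast, so nothing is read from that count.

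**Figure D1:**
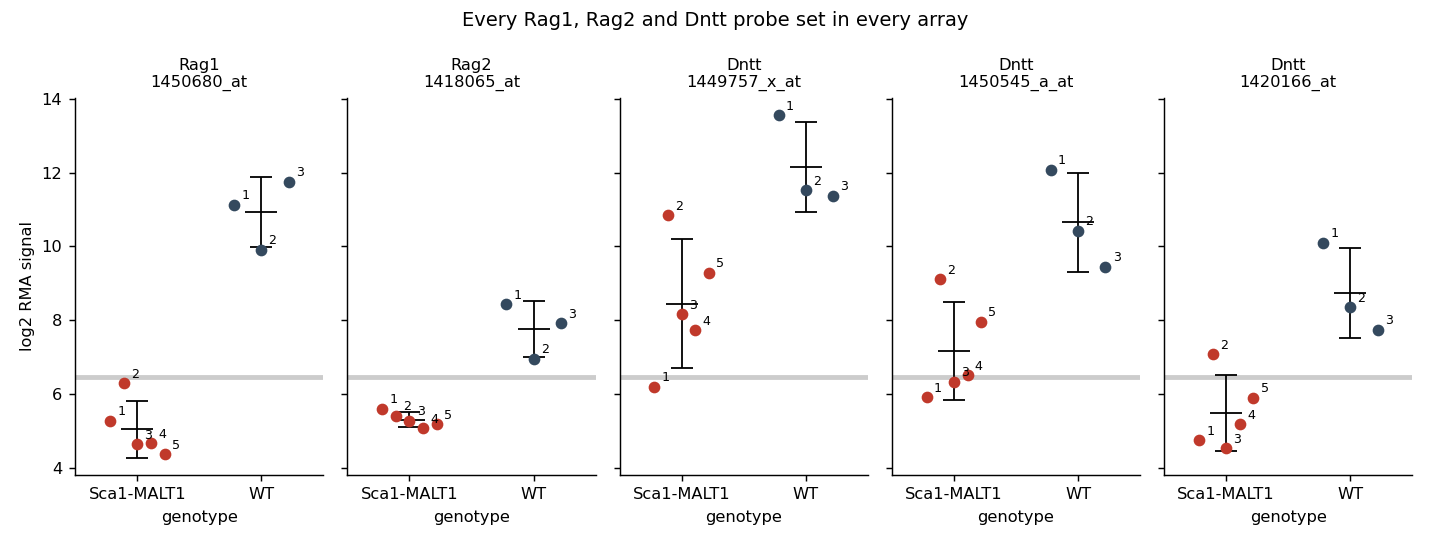
Log2 RMA signal of the 5 probe sets of Rag1, Rag2 and Dntt, with a point and replicate number for each of 5 Sca1-MALT1 arrays (left in each panel) and 3 WT arrays (right), the mean with its SD, and a grey band for the range of array medians. Rag1 and Rag2 lie below the band in every Sca1-MALT1 array, whereas Dntt ranges from 6.20 to 10.85 in its brightest probe set.

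The order of the arrays differed between the recombinase genes and Dntt. Among WT arrays, Rag1 was highest in replicate 3, then 1, then 2, and Rag2 in replicate 1, then 3, then 2, while Dntt followed the order 1, 2, 3. Among Sca1-MALT1 arrays, Rag1 was highest in replicate 2 at 6.29 and lowest in replicate 5 at 4.37, whereas Dntt was high in both, at 10.85 and 9.29. Sca1-MALT1 replicate 1 held the lowest brightest-probe value of Dntt, 6.20, but the highest Rag2 and the second highest Rag1. All Rag1 and Rag2 values in Sca1-MALT1 lie below the array medians, where signal and background cannot be separated, so their order among those arrays may carry no information and was not tested.

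Lists of other genes, none of them a member, were set beside these orders. The list of stem and multipotent progenitor genes, averaged over 13 measured genes, read 7.64, 9.95, 8.52, 8.24 and 10.32 in Sca1-MALT1 replicates 1 to 5, against 10.32, 9.91 and 9.16 in WT replicates 1 to 3. Its order was the same as that of Dntt among the WT arrays. Among the Sca1-MALT1 arrays it differed from that of the brightest Dntt probe set only in the exchange of replicates 2 and 5. In the dimmer Dntt probe sets replicate 4 also stood above replicate 3, and in 1420166_at replicate 3 was the lowest. Other lists shared these orders: 3 of them had the same WT order, and the list of transcription regulators had the same Sca1-MALT1 order as the stem list. The pro-B and pre-B list, averaged over 13 genes, read 9.28, 8.36, 8.61, 8.59 and 8.80 in Sca1-MALT1, against 9.94, 9.61 and 10.64 in WT, with the WT arrays in the order of Rag1. Its order among the Sca1-MALT1 arrays was unlike that of Rag1, which was highest where this list was lowest, in replicate 2. As said above, the order of Rag1 there may carry no information, so nothing is read from this contrast. These orders rest on 5 and 3 arrays and are descriptions. The lists were chosen with results of these data known.

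**Figure D2:**
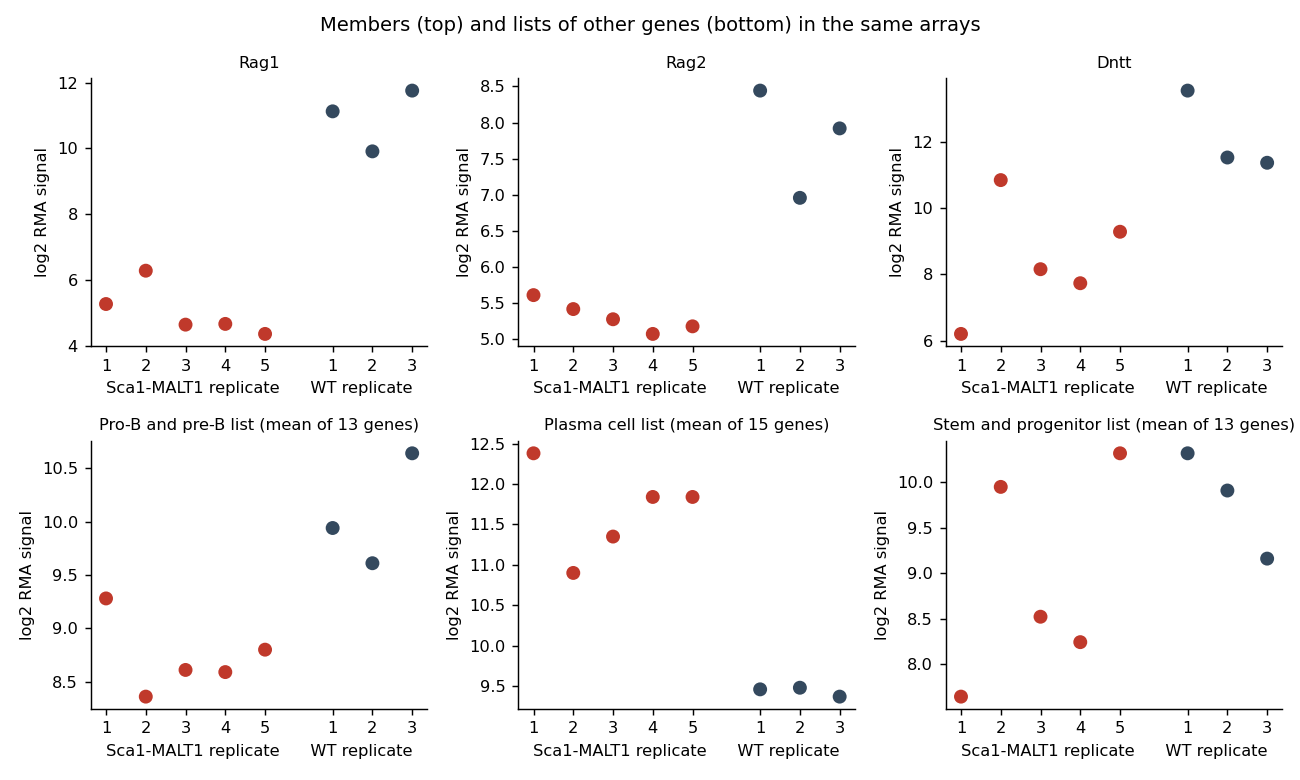
Log2 RMA signal of Rag1, Rag2 and Dntt (brightest probe set, top) and mean log2 signal of the pro-B and pre-B, plasma cell, and stem and progenitor lists (bottom) in each array, 5 Sca1-MALT1 left and 3 WT right in each panel. Dntt and the stem and progenitor list are both lowest in Sca1-MALT1 replicate 1, at 6.20 and 7.64, and both high in replicates 2 and 5.

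The genes whose profile was most like each member were found over all 8 arrays as those with the smallest root mean square difference after each profile was centred on its own mean. For Rag1 the nearest was Vpreb1, a part of the surrogate light chain of the pre-B receptor, at 0.42 log2 units, followed by its partner Igll1 at 1.07, Niban3 at 1.44, the germ cell helicase Ddx4 at 1.60 and the granzyme gene Gzma at 1.65. Vpreb1 read 5.29, 7.18, 5.12, 5.59 and 5.73 in Sca1-MALT1, against 11.58, 10.59 and 11.83 in WT. It was lowest in the same WT array as Rag1 and highest in the same Sca1-MALT1 array. The order of Rag1 among the Sca1-MALT1 arrays, all below the array medians, may carry no information. By limma's test Niban3 fell by 3.18 (SE 0.29, adjusted p = 0.00618), and so did the surrogate light chain genes described further on. For Rag2 the nearest were Gfra1, a receptor for a neurotrophic factor, at 0.36, the actin-binding calponin Cnn3 at 0.45, Capsl at 0.49, the protease gene Tmprss3 at 0.50 and Il12a, a cytokine subunit, at 0.51. Of these, Cnn3 fell by 1.80 (SE 0.15, limma adjusted p = 0.00596). Such a measure favours genes with a difference of like size, and the genotype gap dominates all these profiles. The genes were picked by profiles that include that gap, so nothing is read from their tests here.

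The first 5 genes nearest to the brightest Dntt probe set shared none with those of Rag1 or Rag2. The nearest was Sox4, a transcription factor of progenitors, at 0.81 log2 units, then Hoxa9, a homeobox factor of stem and progenitor cells, at 1.04, the progenitor surface protein gene Cd34 at 1.12, Myct1 at 1.16 and Mamdc2 at 1.17. Sox4 read 7.20, 10.84, 8.25, 9.50 and 10.58 in Sca1-MALT1, against 12.54, 11.88 and 11.70 in WT, so replicate 1 was lowest and replicates 2 and 5 highest, as for Dntt. Hoxa9 read 8.39, 11.70, 9.72, 9.44 and 11.48 in Sca1-MALT1, against 12.78, 11.97 and 11.14 in WT, and its groups overlapped. Sox4 was the nearest gene for all 3 Dntt probe sets, at 0.75 for each of the dimmer ones, and Cd34 was among the first 3 for each. The rest of the first 5 were Hoxa9, Ddx4 and Egfl7 for 1450545_a_at, at 0.91, 0.96 and 0.98, and Gm2629, Egfl7 and Slc35d3 for 1420166_at, at 0.86, 0.88 and 0.91. Ddx4 was also the 4th gene nearest to Rag1. In the order of likeness to Rag1, Dntt was 6th and Rag2 7th, at 1.69 and 1.75 log2 units. In the order of likeness to Dntt, Rag2 was 33rd and Rag1 131st, at 1.47 and 1.69. In the order of likeness to Rag2, however, Dntt was 16034th and Rag1 17682nd, at 1.47 and 1.75. Profiles were not scaled, so a gene with little difference can rank nearer to Rag2 than a gene with a larger drop. These ranks therefore depend on the size of the differences and do not show that the members behaved unlike each other. None of the 5 genes nearest to Dntt passed limma's test, although 3 had an unadjusted p under 0.05, against 10.2% of all genes. These genes too were picked by profiles that include the genotype gap, so nothing is read from these counts. Sox4 differed by -2.77 (SE 0.80, limma adjusted p = 0.32) and Cd34 by -2.155 (SE 0.88, limma adjusted p = 0.458).

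**Figure D3:**
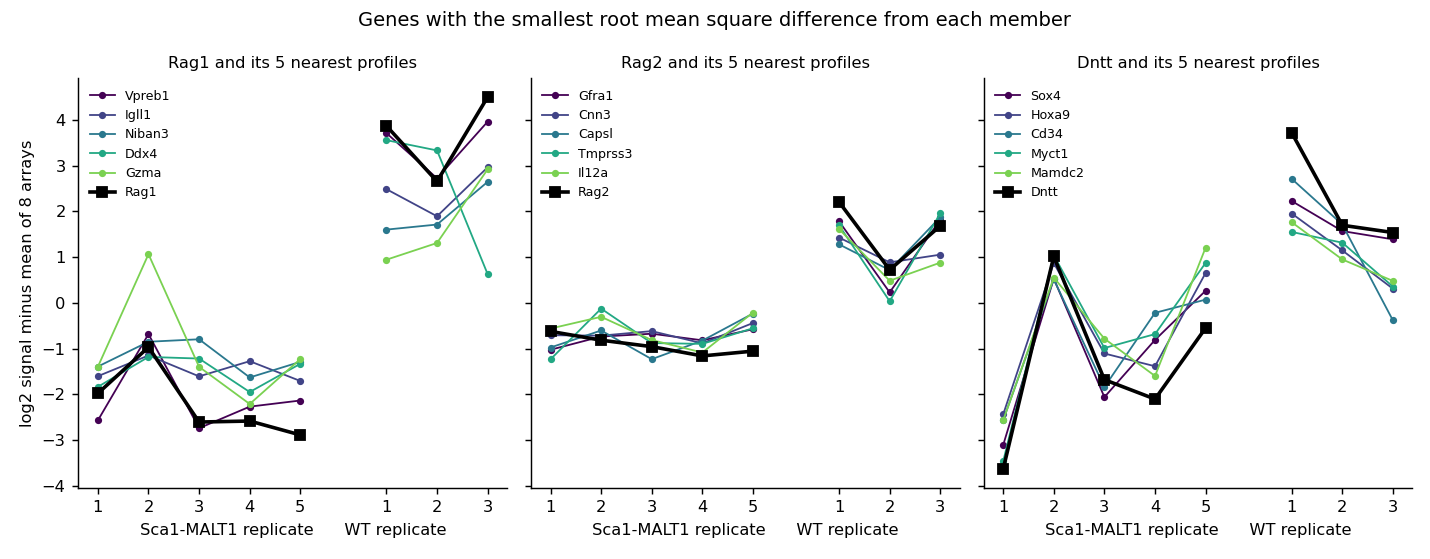
Log2 signal minus the mean of 8 arrays for Rag1, Rag2 and Dntt (black squares) and the 5 genes nearest to each in root mean square difference (coloured), with 5 Sca1-MALT1 arrays left and 3 WT arrays right in each panel; lines join replicates of 1 genotype only to guide the eye. Rag1 runs with Vpreb1 at 0.42 log2 units, and Dntt with Sox4 at 0.81 and the same high values in Sca1-MALT1 replicates 2 and 5.

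Genes beside the members on the chromosome were looked at to see whether the low signal extended along it. None of the 4 measured genes on either side of the Rag1 and Rag2 pair or of Dntt passed limma's test (adjusted p under 0.05 over all genes), although 4 of the 16 had an unadjusted p under 0.05, as did 10.2% of all genes. The nearest measured gene on the Rag2 side, Iftap, whose annotated span overlaps Rag2, averaged 7.95 ± 0.62 in Sca1-MALT1 (SD, n = 5) and 9.07 ± 0.56 in WT (SD, n = 3), a limma difference of -1.12 (SE 0.38, adjusted p = 0.381). The values of the genotypes overlapped in this probe set. Whether its probe sets share sequence with Rag2 transcripts was not tested. On the Rag1 side, Traf6, a ubiquitin ligase of NF-kB signalling that acts downstream of MALT1, differed by 0.06 (SE 0.14, limma adjusted p = 0.914). Next to it Prr5l, a regulator of a growth-signalling kinase complex, differed by -0.72 (SE 0.19, limma adjusted p = 0.288) with no overlap between the groups, as for 2.87% of all genes in the lower direction.

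Further out along chromosome 2 the differences were -0.32 for Commd9, -0.83 for Ldlrad3, -0.26 for Lrrc4c, -0.02 for Api5, an inhibitor of apoptosis, and -0.81 for 2810002D19Rik. Around Dntt, the differences were -0.23 for Blnk (SE 0.45, limma adjusted p = 0.9), the adaptor of the pre-B and B cell receptors that lies next to it, and 0.03 for Opalin (SE 0.14, limma adjusted p = 0.959), a myelin gene on its other side. Zfp518a, Tll2 and Cc2d2b differed by 0.02, -0.015 and 0.015. Opalin, Lrrc4c, Tll2 and Cc2d2b had signals below the array medians in both genotypes, so a drop in their signal could have gone unseen. Ccnj differed by -0.57, Tm9sf3 by 0.14 and Pik3ap1, a B cell adaptor of lipid kinase signalling, by -0.23. These limma differences of neighbours ranged from -1.12 to 0.14, against -2.46 to -5.88 for the 3 members, and the contrast between the sets was not tested because the members were chosen for theirs.

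**Figure D4:**
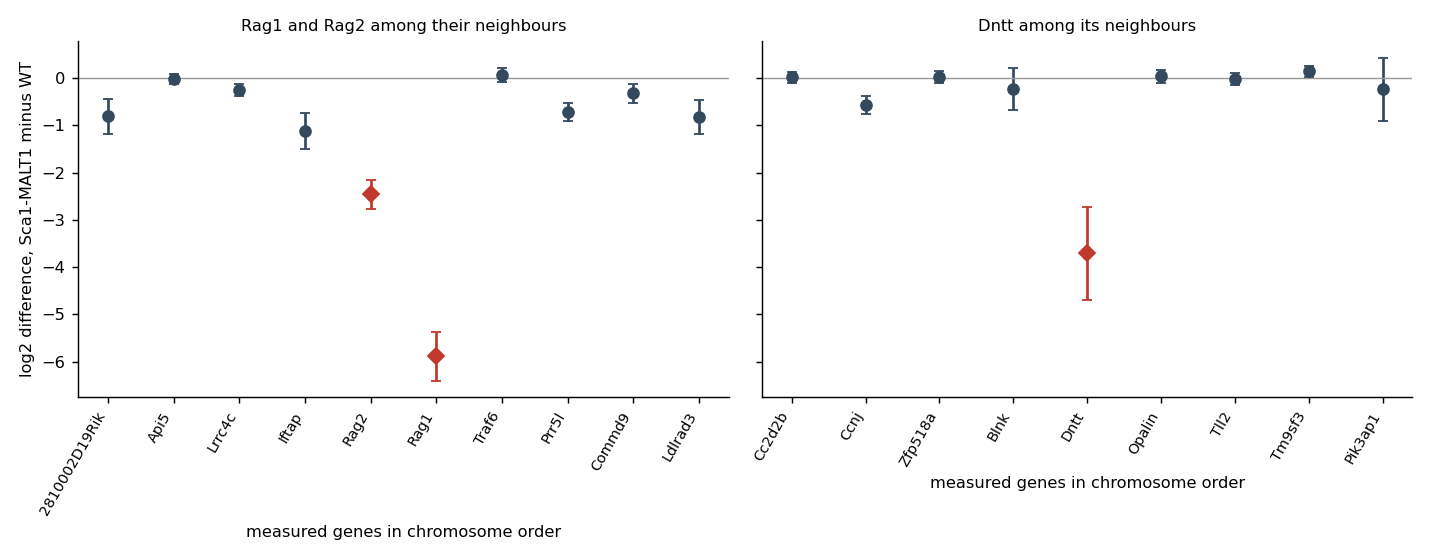
Log2 difference (Sca1-MALT1 minus WT) with the SE of the limma fit for the measured genes around Rag1 and Rag2 (left) and around Dntt (right), in chromosome order and not to scale of distance; members are red diamonds, neighbours dark circles, from 5 Sca1-MALT1 and 3 WT arrays. The neighbours lie between -1.12 and 0.14, the members between -5.88 and -2.46.

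No measured gene of the factors that work with the recombinase or seal its breaks passed the test. Of 15 listed cofactors and end joining genes, 11 were measured with 7 lower and 4 higher and a median of -0.10, against 0.00 over all genes. By limma 3 of the 11 had an unadjusted p under 0.05, as did 10.2% of all genes. Xrcc6, which encodes the Ku70 subunit that binds broken ends, read 9.59, 9.66, 9.20, 9.63 and 9.89 in Sca1-MALT1, against 10.85, 10.30 and 10.64 in WT, a difference of -1.005 (SE 0.18, limma adjusted p = 0.127) with no overlap. Its partner subunit gene Xrcc5 differed by 0.06 (SE 0.18, limma adjusted p = 0.937). Lig4, the ligase that seals the joint, differed by -0.99 (SE 0.34, limma adjusted p = 0.382), and Prkdc, the DNA-dependent protein kinase, by -0.50 (SE 0.225, limma adjusted p = 0.504). Of the polymerases related to TdT, Poll differed by -0.40 (SE 0.13, limma adjusted p = 0.36) and Polm by 0.17 (SE 0.38, limma adjusted p = 0.917).

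Genes of the response to DNA breaks and of RAG and TdT turnover did not pass the test either. All 15 break response genes were measured, none passed, none had an unadjusted p under 0.05 and the median was -0.11, with Chek2, a checkpoint kinase, at -0.52, Trp53bp1, which protects broken ends, at -0.41, Parp1 at -0.36 and Nbn at -0.25. Of 11 listed partners and turnover genes 9 were measured and none passed, with a median of 0.02. By limma 1 of the 9 had an unadjusted p under 0.05, against 10.2% of all genes. That gene was Skp2, part of the ligase that degrades RAG2 as cells enter S phase, at -0.95 (SE 0.185, limma adjusted p = 0.18). Cul4a, Ddb1 and Dcaf1, members of a ligase that RAG1 associates with, differed by 0.25, 0.18 and 0.24. The list for class switching and hypermutation, the later remodelling of immunoglobulin genes that needs no RAG, had 9 of 11 genes measured, none past the test, none with an unadjusted p under 0.05 and a median of -0.08. In it Msh6 differed by -0.60, Apex1 by -0.74, Ung by -0.76 and Apex2 by 0.21.

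Among 28 listed transcription factors that act on the recombinase genes, none passed limma's test, 19 were lower and 9 higher, and 9 had an unadjusted p under 0.05, against 10.2% of all genes. The median was -0.26. Pax5, the B lineage commitment factor, averaged 5.77 ± 0.19 in Sca1-MALT1 (SD, n = 5) and 6.93 ± 0.57 in WT (SD, n = 3), a difference of -1.16 (SE 0.24, limma adjusted p = 0.204). Tcf3, whose E proteins bind enhancers of Rag1 and Rag2, differed by -0.78 (SE 0.18, limma adjusted p = 0.224), and Zfp608, a repressor of Rag1 and Rag2 in thymocytes, by -1.38 (SE 0.345, limma adjusted p = 0.271). In 5 of the 28 the groups did not overlap with Sca1-MALT1 lower, against 2.87% over all genes, and in none with Sca1-MALT1 higher. Foxo1, which drives Rag1 and Rag2 in pro-B and pre-B cells, differed by 0.11 (SE 0.39, limma adjusted p = 0.951), and Ikzf1, which encodes Ikaros, by 0.13 (SE 0.16, limma adjusted p = 0.834). Ebf1, an early B lineage factor, differed by -2.28 (SE 0.69, limma adjusted p = 0.339), and Myb, a factor of progenitors, by -1.565 (SE 0.675, limma adjusted p = 0.486) with no overlap. These 4 are named beyond the rule for naming genes, as textbook regulators, and were chosen after their values were seen. The other genes of this list with an unadjusted p under 0.05 were Irf4, Gfi1b, Bach2 and Sox4. They differed by 1.74, 0.91, -1.51 and -2.77 (limma adjusted p = 0.347, 0.386, 0.38 and 0.32). Of these, Irf4, Gfi1b and Bach2 are also named beyond that rule.

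Lists of genes of cells that express the recombinase, and of cells that do not, were set beside the members. In the pro-B and pre-B list 11 of 13 measured genes were lower, with a median of -1.17, and 2 fell by limma's test, as Vpreb1 fell by 5.55 (SE 0.48, adjusted p = 0.00596) and Igll1 fell by 3.92 (SE 0.24, adjusted p = 0.00228), where 0.044% of all genes passed in the lower direction. Igll1 has a second, dimmer probe set that was not lower. The other 11 did not pass, among them Akap12 at -2.50 and Lax1 at 1.03. The lymphoid progenitor list had no gene past the test, 4 of 11 with an unadjusted p under 0.05, against 10.2% of all genes, and a median of -0.38. Its mean was lower in each Sca1-MALT1 array, at 9.57 to 10.18, than in each WT array, at 10.39 to 10.54, with differences of single genes such as Il12a at -1.59, the cytokine receptor Flt3 at -1.59, Notch1 at -0.50 and Lsp1 at -0.38. In the stem and multipotent progenitor list none of 13 passed, 3 had an unadjusted p under 0.05, also against 10.2%, and the median was -1.06, with Hlf, a stem cell transcription factor, at -1.33, Hoxa9 at -1.82, Myct1 at -1.72 and Cd34 at -2.155.

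The T cell precursor list was included because thymocytes also express RAG and TdT. None of its 13 measured genes passed limma's test, and 1 had an unadjusted p under 0.05, against 10.2% of all genes. Of the 13 genes 10 were higher, and the median was 0.51. Ptcra, the defining pre-T receptor chain, and the coreceptor gene Cd8b1 lay below the array medians in all 8 arrays, and Cd8a read 6.68 to 6.97 in Sca1-MALT1 and 6.76 to 6.84 in WT. The mean of the list was 8.47 to 9.46 in Sca1-MALT1 and 8.43 to 9.03 in WT, with Thy1 at 1.43, Cd3e at 0.77, Themis at 0.65 and Cd4 at -0.225.

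The plasma cell list, cells in which the recombinase is off, was higher in each Sca1-MALT1 array than in each WT array, with means of 10.90 to 12.38 and 9.37 to 9.48. The median difference of its 15 measured genes was 1.74, none was lower, 15 of 15 had an unadjusted p under 0.05 against 10.2% of all genes, and in 12 the groups did not overlap, as for 4.27% of all genes in the higher direction. Only Jchain, the joining chain of secreted antibody, rose by limma's test, a difference of 2.58 (SE 0.27, adjusted p = 0.0163); 0.044% of all genes passed in the higher direction. It lost that call without Sca1-MALT1 replicates 1, 3 or 5 or WT replicate 3, with adjusted p-values of 0.0537 to 0.0718. The other genes named by the rule were Igha at 5.93, Edem1 at 2.82 and Xbp1 at 1.32, each with an adjusted p of 0.109. Sca1-MALT1 replicate 1, the array with the lowest Dntt in its brightest probe set, had the highest plasma cell mean, 12.38, and replicate 2, with the highest Dntt, the lowest, 10.90. The arrays between did not follow this reverse order. Replicate 5 was second highest for Dntt, at 9.29, and shared the second highest plasma cell mean, 11.84, with replicate 4. In its dimmest probe set Dntt was lowest in replicate 3, at 4.53, with replicate 1 at 4.75. The part of plasma cells, or of any other change in cell makeup, in the low signal of the members was not tested.

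In the mature B cell list none of 12 genes passed, 3 had an unadjusted p under 0.05, against 10.2% of all genes, and the median was -0.75, with Cd72 at -1.55, Cd40 at -0.91, Ciita at -0.32 and Fcer2a at -1.02. Its mean was 8.35 to 9.52 in Sca1-MALT1 and 9.32 to 9.83 in WT. Among 12 measured genes of lineage cells outside the gate none passed and 3 had an unadjusted p under 0.05, against the same 10.2%, with Gzma at -2.76, Csf1r at -1.69, Nkg7 at 1.17 and Epor at 0.63.

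**Figure D5:**
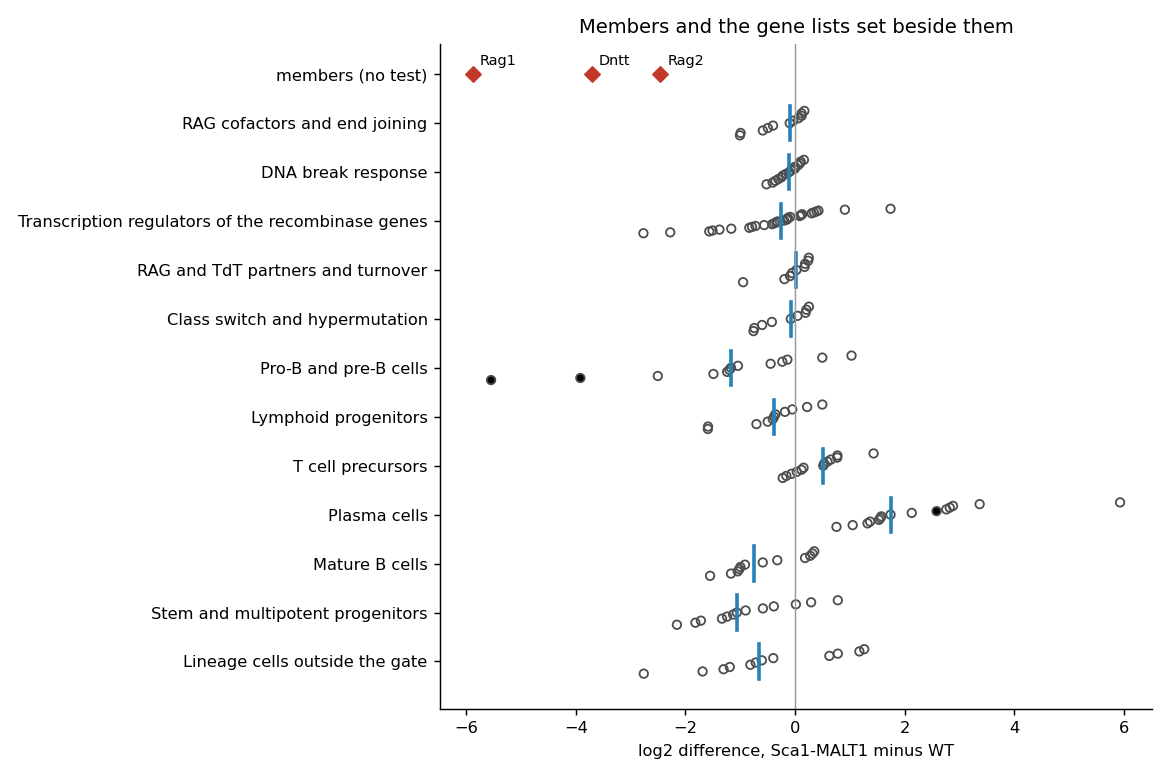
Log2 difference (Sca1-MALT1 minus WT, 5 against 3 arrays) of each measured gene in 12 lists, with filled points for genes at an adjusted p under 0.05 in limma's test, open points for the rest and a blue bar for the list median; Rag1, Rag2 and Dntt are red diamonds with no test. The end joining and break response genes lie between -1.005 and 0.17, and Vpreb1 and Igll1 are the 2 lower genes past the threshold.

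Within the 6 arrays with low Xist, 3 of each genotype, the members were lower in Sca1-MALT1 as well. There Rag1 averaged 4.77 in Sca1-MALT1 and 10.93 in WT, Rag2 5.36 and 7.77, and the brightest Dntt probe set 7.88 and 12.16. The differences there were -6.17, -2.42 and -4.27, against -5.88, -2.46 and -3.71 over all arrays. No WT array had high Xist, so the difference could not be read among the arrays with high Xist.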

How the data were processed

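Total RNA of 8 samples was amplified, labelled with biotin and hybridised to Affymetrix arrays, per the labels' protocols. The deposited log2 values, 1 per probe set and array, were made by the authors with RMA, per the submitters' processing notes, and were used as they stood. Which RMA version was run, and on which arrays jointly, is not stated by any source used here. The number of arrays limits the precision.

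Of 45101 probe sets, 64 controls were left out of gene tests, 34945 had 1 gene symbol in the platform annotation, 932 had several and 9160 were unnamed. A RefSeq table of GRCm38.p6, matched by Entrez identifier for 18031 of 18193 genes, gave current symbols and gene order. The brightest probe set by the mean over all 8 arrays stood for a gene. Sca1-MALT1 was compared with WT by limma 3.58.1 in R 4.3.3 (lmFit, eBayes, genotype as the only term, two-sided, Benjamini-Hochberg over 18193 genes, threshold 0.05). The fit was tested on simulated data. Single values per array were compared by an exact permutation test over 56 splits. Promoter sequences came from RefSeq, and all 3 members matched by symbol.

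The members and the 12 lists (178 genes, 159 measured by a probe set with 1 symbol) were chosen with earlier results of these data known, so no test over a list was run. From each list, genes past the threshold and up to 4 with the lowest unadjusted p were named. The neighbours were the 4 measured genes per side, and the genes of like pattern the 5 with the smallest root mean square difference. Samples were not paired by replicate number. Alternatives were quantile normalization, median centring, filters on dim genes, other probe set rules, other variance models and weights, a replicate block, an Xist term, other thresholds and leaving out each array; the arrays with log2 Xist under 9 alone, and each Dntt probe set alone, were added after the data were seen.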

Additional observations from a re-analysis of the deposited data

Results flagged for a closer look

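Among 90 values checked in the group of 5 Sca1-MALT1 arrays, 6 had 1 array far from the other four, where chance flags about 1 in 20 groups. None was a value of Rag1, Rag2 or Dntt. Sca1-MALT1 replicate 4 was low in 5 of them. Thy1, a surface protein of T cells, read 10.99 there and 12.46 to 12.92 in the others, and Themis, a T cell signalling gene, 7.67 against 9.24 to 9.59. The mean of the T cell precursor list was 8.47 and that of the lymphoid progenitor list 9.57. On chromosome 2, 2810002D19Rik read 5.89, against 7.19 to 7.70 in the others. The beta-actin 3' minus 5' signal was 2.49 in Sca1-MALT1 replicate 5, against 1.25 to 1.53 in the others. The differences of the members without either array lie within their ranges over the alternatives.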

How the results depend on the processing

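The differences of Rag1, Rag2 and Dntt kept their sign and moved by less than the pooled replicate SD of the genotypes (0.83 for Rag1, 0.47 for Rag2 and 1.59 for Dntt) under every alternative that kept the gene. Over the alternatives they ranged from -6.39 to -5.47 for Rag1, from -2.87 to -2.13 for Rag2 and from -4.31 to -3.01 for Dntt. Rag2 did not pass either filter on dim genes, nor Rag1 the one on the mean. The number of genes past the threshold, 16, became 28 with median centring, 28 with the filter on genes above the array's median over genes in at least 3 arrays, 28 with array quality weights, 29 with an Xist term, 59 in the arrays with low Xist, 8 at an adjusted p of 0.01 and 38 at 0.10. It ranged from 8 to 38 with 1 array left out, being 10, 38, 8 and 9 without Sca1-MALT1 replicates 1, 2, 3 and 5. With the replicate number as a block it was 0 for all genes and 0 for the listed genes by limma, but same-numbered samples shared only a number (r of their deviations -0.217, -0.038 and 0.006, and no Sca1-MALT1 array correlated best with its own number). The 3 listed genes past the threshold became 5 in the arrays with low Xist and 2 to 5 with 1 array left out, 5 without Sca1-MALT1 replicate 2. Vpreb1 and Igll1 passed in 18 of 19 alternatives each, all but the block (adjusted p = 0.225 and 0.173). No neighbour passed under any alternative. Neighbours near 0 changed sign, none with a call. Median centring gave -0.01 for Cc2d2b and -0.001 for Zfp518a, the block -0.06 for Zfp518a and 0.01 for Api5, quality weights -0.005 for Opalin, the mean of probe sets -0.01 for Traf6, and the Xist term and the arrays with low Xist each 0.04 for Blnk and 0.01 for Tll2. With 1 array left out, the differences ranged from -0.04 to 0.11 for Cc2d2b, -0.04 to 0.11 for Zfp518a, -0.42 to 0.08 for Blnk, -0.05 to 0.09 for Opalin, -0.12 to 0.10 for Tll2, -1.16 to 0.62 for Pik3ap1, -0.06 to 0.03 for Api5 and -0.02 to 0.12 for Traf6. The cause of these changes was not tested. RMA gives no signal over background, which limits what can be said of Rag1 and Rag2 in Sca1-MALT1.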
